A study of Mus musculus with 24 samples.

Results

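The carbonic anhydrase genes of the mouse liver are described here. The 8 members Car1, Car2, Car3, Car4, Car5a, Car8, Car13 and Car14 were found in the expression table by their Entrez gene identifiers and make up 8 of its 18171 genes. Carbonic anhydrases are mostly zinc enzymes that interconvert carbon dioxide and bicarbonate, and they supply or remove bicarbonate and protons in the cytosol, in mitochondria and at the cell surface. In liver, mitochondrial bicarbonate feeds the first step of the urea cycle and the carboxylation of pyruvate. Car3, a cytosolic form of low catalytic activity, is abundant in muscle, fat and the liver of male rodents.

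The 24 RNA-seq libraries came from liver of C57BL/6 mice: 12 from animals with overexpression of L2d13 (L2 delta13 in the series title) and 12 from wild-type (WT) animals. The library names carry the digit 2 or 4, which gave 4 groups of 6 libraries: L2d13 set 2, WT set 2, L2d13 set 4 and WT set 4, with replicates 1 to 6 in set 2 and 7 to 12 in set 4. The meaning of the digit, the promoter that drove L2d13, and the age and sex of the animals are not given in the sources used here. Nor is it stated whether each library is a separate animal. The p-values below then cover only the variation among libraries, part of which may be technical.

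The summed FPKM (fragments scaled to transcript length and to the total of the library) ran from 550260 to 722980 per library, and absolute read depth is unknown. L2 is not spelled out in the labels. Gm21451, chosen after its values were seen, separated the genotype labels without overlap, at 40.63 to 266.18 FPKM in L2d13 livers and 0.03 to 1.27 FPKM in WT livers. In 18 libraries 1 fragment was worth nearly the same FPKM, 0.957 to 1.024 of the median library, and in 6 it was worth 1.043 to 1.303, namely L2d13 set 2 replicate 3, WT set 2 replicate 6 and WT set 4 replicates 9 to 12. At equal transcript length, a larger worth goes with a smaller total of the library. L2d13 set 2 replicate 3 also stood apart in cell markers. The 10 hepatocyte markers summed to 29517 FPKM in it and to 48622 to 56246 FPKM in the other 5 libraries of its group, while 12 erythroid genes summed to 3581 FPKM against 602 to 1424 FPKM. The differences between genotypes of the tested members over both sets are therefore also given without this library and within the 18 libraries.

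The reaction that most members catalyse depends on 3 histidines that hold the zinc ion. The coding sequence around these codons shows the family likeness of the member with the largest difference (Car3) and of the textbook high-activity form (Car2). Each stretch has 90 bases, is read 5′ to 3′ on the coding strand of the GENCODE M21 transcript (GRCm38) and spans an intron in the genome. Capitals mark the codons aligned to the 3 zinc-binding histidine codons of Car2.
Car2, codons 92 to 121, chr3:14895063-14895546, + strand: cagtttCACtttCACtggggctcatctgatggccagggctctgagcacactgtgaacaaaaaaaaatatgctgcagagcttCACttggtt
Car3, codons 92 to 121, chr3:14866844-14868360, + strand: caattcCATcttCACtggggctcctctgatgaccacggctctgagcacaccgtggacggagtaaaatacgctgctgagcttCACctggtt
All 3 positions are histidine codons in both genes. Aligned residues were identical at 56.9% of positions between Car3 and Car2 and at 56.8% between Car3 and Car1. The longest exact stretch that a Car3 transcript shared with another member was 20 bases, with Car1, and the longest between any 2 members was 30 bases, between Car2 and Car13. How the authors' counting treated such short shared stretches is not given in the sources used here.

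Genes with at least 1 FPKM in at least 6 libraries were tested, which left 10532 genes and 6 of the 8 members: Car1, Car2, Car3, Car5a, Car8 and Car14. Car4 and Car13 fell below that level. Over both sets, 5 of the 6 tested members passed an adjusted p of 0.05 in limma: Car3, Car8, Car1 and Car5a were lower and Car2 was higher in L2d13 livers. Across all genes tested, 30.8% passed in that comparison, 4.86% as lower and 25.9% as higher. The median log2 difference was -0.50 over the 6 members and 0.12 over all genes tested.

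Car3 (chromosome 3, 14863512 to 14872523, + strand) was by far the most abundant member. In set 2 it had 246.85, 131.75, 154.12, 55.99, 452.76 and 330.57 FPKM in L2d13 livers, against 1080.57, 940.69, 664.43, 1292.91, 770.27 and 888.27 FPKM in WT livers. In set 4 it had 443.98, 376.38, 185.16, 489.38, 759.65 and 264.92 FPKM in L2d13 livers, against 1344.06, 699.64, 1695.68, 1356.59, 1295.37 and 2133.95 FPKM in WT livers. Every L2d13 library of set 2 lay below every WT library of set 2, which held for 0.56% of all genes tested. In set 4 all L2d13 libraries lay below all WT libraries for 1.7% of all genes tested and for no member. Car3 missed this by 1 library: L2d13 replicate 11 lay above WT replicate 8, and the other 5 L2d13 libraries lay below all 6 WT libraries.

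Car3 averaged 324 ± 195 FPKM in L2d13 livers and 1180 ± 435 FPKM in WT livers (SD, n = 12 each). The log2 difference was -2.06 ± 0.27 (SE), a 4.16-fold lower level, with an adjusted p of 7.85e-06 in limma, and it was the 8th largest fall among the tested genes. When the genotype labels were permuted within sets, the two-sided permutation p was 1e-05, the smallest that 100000 resamples can give. The spread among L2d13 libraries was itself wide: replicate 4 of set 2, at 55.99 FPKM, and replicate 11 of set 4, at 759.65 FPKM, mark its ends. Livers are mixtures of cells, and in bulk RNA fewer cells of a type and less RNA per cell cannot be told apart.

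Within set 2 Car3 fell by 2.29 ± 0.38 on the log2 scale in L2d13 livers (SE, adjusted p = 0.000451 in limma). Within set 4 it fell by 1.82 ± 0.38 (SE, adjusted p = 0.00332 in limma). Exact two-sided permutation tests gave p = 0.00216 in set 2, the smallest possible for 6 against 6, and p = 0.00433 in set 4. The fall did not differ detectably between the sets: the difference, set 4 minus set 2, was 0.47 ± 0.54 (SE), with an adjusted p of 0.88 in limma. Without L2d13 set 2 replicate 3 the fall over both sets was 2.02 on the log2 scale. Within the 18 libraries of nearly equal FPKM per fragment the log2 difference over both sets was -1.91 with an adjusted p of 0.00119 in limma. In set 4 alone those libraries leave 2 WT livers, and the log2 difference was -1.35 with an adjusted p of 0.189.

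**Figure D1:**
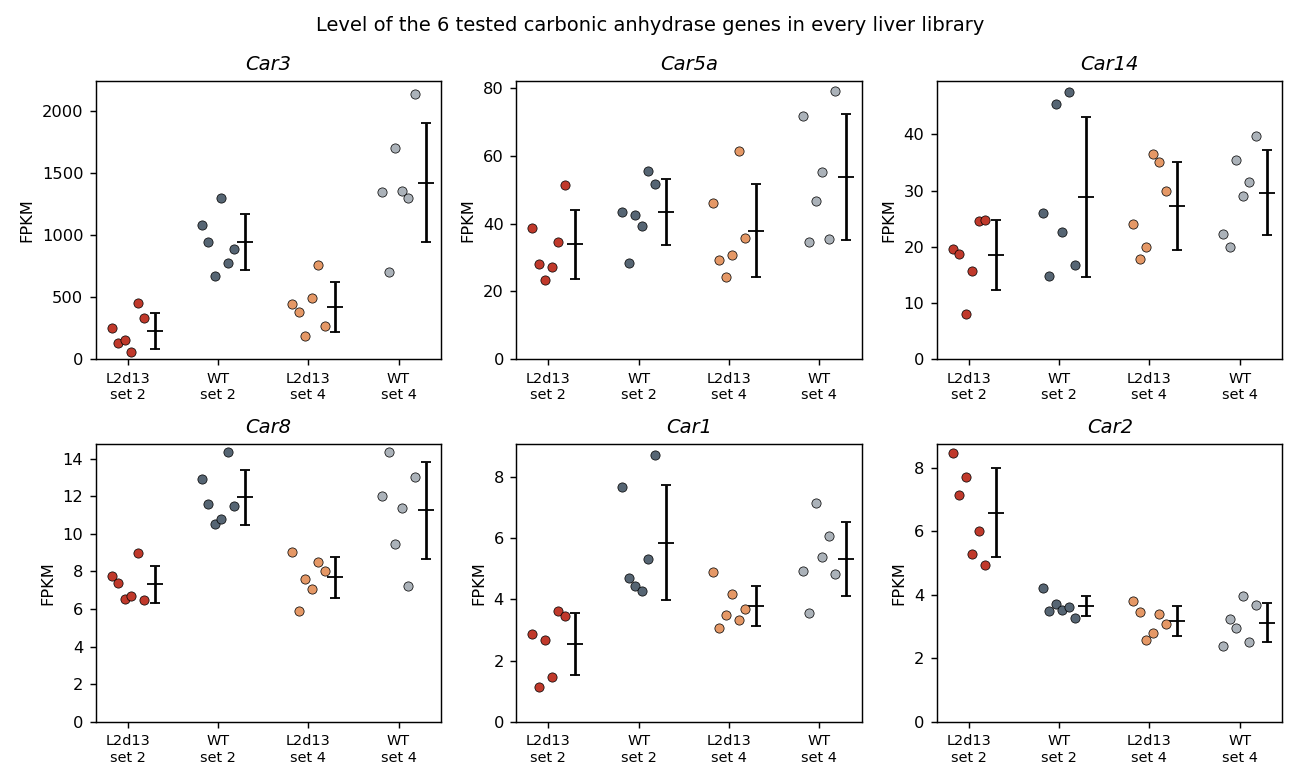
FPKM of the 6 tested carbonic anhydrase genes in every library, with 1 panel per gene, 1 point per library, and groups on the horizontal axis with L2d13 left of WT within each set. Car3 lies at 55.99 to 759.65 FPKM in L2d13 livers and at 664.43 to 2133.95 FPKM in WT livers, and Car2 at 4.93 to 8.45 FPKM in the L2d13 livers of set 2 and at 2.38 to 4.2 FPKM in the other 3 groups.

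Car1 (chromosome 3, 14766216 to 14808368, - strand), the abundant cytosolic form of red blood cells, was a low-level gene that fell in set 2. In set 2 it had 2.87, 1.15, 2.67, 1.45, 3.61 and 3.45 FPKM in L2d13 livers, against 7.68, 4.69, 4.43, 4.28, 5.31 and 8.71 FPKM in WT livers. All L2d13 libraries lay below all WT libraries there, as held for 0.56% of all genes tested. The set 4 values of Car1 were 4.9, 3.08, 3.48, 4.17, 3.34 and 3.7 FPKM in L2d13 livers, against 4.93, 3.55, 7.14, 5.39, 6.07 and 4.82 FPKM in WT livers. There, 3 of the 6 L2d13 libraries lay below the lowest WT library and all 6 lay below the WT mean.

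Over both sets Car1 averaged 3.16 ± 1.05 FPKM in L2d13 livers and 5.58 ± 1.54 FPKM in WT livers (SD, n = 12 each), a log2 difference of -0.68 ± 0.14 (SE, adjusted p = 0.00098 in limma). Within set 2 the log2 difference was -0.97 ± 0.19 (SE, adjusted p = 0.00171 in limma), and within set 4 it was -0.39 ± 0.19 (SE, adjusted p = 0.166). The difference between the sets was 0.58 ± 0.27 (SE, adjusted p = 0.666 in limma). Erythroid genes mark the cells known for Car1. Of 12 such genes 7 were tested, of which 1 rose and 1 fell in L2d13 livers over both sets, with a median log2 difference of 0.02. Of all genes tested, 25.9% rose and 4.86% fell in that comparison. Bpgm, an enzyme of red cell glycolysis, rose by 0.28 ± 0.09 (log2, SE, adjusted p = 0.028 in limma), and Alas2, the erythroid enzyme of haem synthesis, fell by 0.35 ± 0.11 (log2, SE, adjusted p = 0.0153). The 4 globin genes had log2 differences of -0.16 to 0.05 and did not pass. By set, 1 of the 7 rose in set 2 (where 13% of all genes tested rose), with a median of 0.35. In set 4, 1 of the 7 fell (where 2.97% of all genes tested fell), with a median of -0.33. Summed erythroid FPKM ran from 602 to 3581 in L2d13 and from 577 to 1046 in WT livers of set 2, and from 593 to 1615 in L2d13 and from 669 to 1729 in WT livers of set 4. Their part in the Car1 level was not tested. Without L2d13 set 2 replicate 3, which had the 3581 FPKM, the log2 difference of Car1 was -0.68 over both sets. Within the 18 libraries it was -0.60 with an adjusted p of 0.0188 in limma.

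Car2 (chromosome 3, 14886273 to 14900770, + strand), the fast cytosolic form found in many cell types, was the member that was higher in L2d13 livers, and it passed in set 2 and not in set 4. In set 2 it had 8.45, 7.15, 7.7, 5.28, 6.01 and 4.93 FPKM in L2d13 livers, against 4.2, 3.49, 3.71, 3.51, 3.62 and 3.26 FPKM in WT livers. Every L2d13 library of set 2 lay above every WT library of set 2, which held for 5.44% of all genes tested. The set 4 values of Car2 were 3.81, 3.46, 2.56, 2.78, 3.4 and 3.07 FPKM in L2d13 livers, against 2.38, 3.25, 2.95, 3.96, 2.52 and 3.66 FPKM in WT livers. These groups overlapped, with 3 of 6 L2d13 libraries above the WT mean.

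Car2 averaged 6.59 ± 1.40 FPKM in L2d13 and 3.63 ± 0.317 FPKM in WT livers of set 2 (SD, n = 6 each), a log2 difference of 0.69 ± 0.12 (SE, adjusted p = 0.000577 in limma). In set 4 Car2 averaged 3.18 ± 0.465 FPKM in L2d13 and 3.12 ± 0.625 FPKM in WT livers (SD, n = 6 each), a log2 difference of 0.03 ± 0.12 (SE, adjusted p = 0.901 in limma) with a 95% interval of -0.22 to 0.27. The sign of that last value turned under median-of-ratios scaling (-0.04) and quantile normalization (-0.07), which shift the median of all genes as given below. The difference between the sets was -0.67 ± 0.17 (SE) and did not pass, with an adjusted p of 0.157 in limma over all genes. Over both sets the log2 difference was 0.36 ± 0.11 (SE, adjusted p = 0.0119), and this call was lost under both scalings, at 0.24 with an adjusted p of 0.0847 and 0.24 with an adjusted p of 0.097.

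Between the sets, Car2 was lower in set 4 than in set 2 of L2d13 livers by 0.85 ± 0.12 on the log2 scale (SE, adjusted p = 0.000297 in limma), the 7th smallest p of all genes tested. All 6 libraries of set 2 lay above all 6 of set 4, as they did for 4.97% of all genes tested. In WT livers the same contrast was -0.18 (adjusted p = 0.707). Of the 6 tested members Car2 alone passed in the L2d13 contrast, in which 6.06% of all genes tested passed, 5.51% as lower and 0.551% as higher. No member passed in the WT contrast (0 of 6 in limma, also at an unadjusted p of 0.05), where 0.19% of all genes tested passed.

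Liver endothelium was followed with 10 marker genes. They summed to 111 to 275 FPKM in L2d13 livers of set 2 and 50.7 to 121 FPKM in WT livers of set 2. The 275 FPKM was L2d13 replicate 3, and the other L2d13 libraries of set 2 had 111 to 134 FPKM. The endothelial counts and medians below include that replicate. In set 4 the sums were 47.6 to 101 FPKM in L2d13 livers and 35.6 to 101 FPKM in WT livers. Of 9 tested endothelial genes, 5 rose in L2d13 livers over both sets (where 25.9% of all genes tested rose) and 3 in set 2 (where 13% rose). None of the 9 passed in set 4 (0 in limma, 1 at an unadjusted p of 0.05, higher). In L2d13 livers 5 of the 9 were lower in set 4 than in set 2 (where 5.51% of all genes tested were lower). The median log2 difference of these 9 genes between genotypes was 0.69 in set 2 and 0.28 in set 4, and their median for set 4 minus set 2 was -0.86 in L2d13 livers and -0.44 in WT livers. Cholangiocytes, the bile duct cells in which Car2 is known, had 4 tested markers, of which 0 passed over both sets in limma, also at an unadjusted p of 0.05. Within set 4, where 2.97% of all genes tested fell, 1 of the 4 markers fell in L2d13 livers. Their median log2 difference was 0.24 in set 2 and -0.32 in set 4. Cholangiocyte marker sums were 20.1 to 143 FPKM in L2d13 and 16.5 to 87.0 FPKM in WT livers of set 2, the highest again in L2d13 replicate 3. The part of either cell type in the Car2 level was not tested. Without L2d13 set 2 replicate 3 the log2 difference of Car2 was 0.65 in set 2 (adjusted p = 0.00125 in limma) and 0.32 over both sets (adjusted p = 0.0181). Within the 18 libraries it was 0.63 in set 2 (adjusted p = 0.00206) and 0.44 over both sets (adjusted p = 0.00698).

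**Figure D2:**
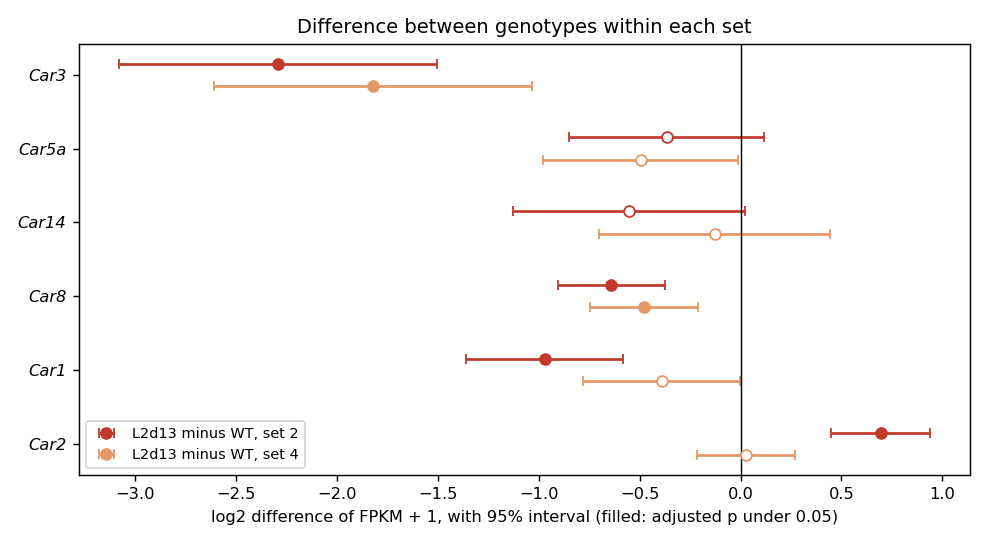
Log2 difference of FPKM + 1, L2d13 minus WT, of the 6 tested carbonic anhydrase genes within each set, with bars for the 95% interval and filled points for an adjusted p under 0.05. Car3 lies lowest in both sets, at -2.29 and -1.82, and Car2 is at 0.69 in set 2 and 0.03 in set 4.

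Car13 (chromosome 3, 14641727 to 14663002, + strand), another cytosolic form, was barely detected, at 0 to 0.26 FPKM in L2d13 livers and 0 to 0.12 FPKM in WT livers, and was not tested. Car13, Car1, Car3 and Car2 follow each other in this order on chromosome 3, and in L2d13 livers of set 2 the adjacent Car1 and Car3 fell while Car2 rose. The tested neighbours on the Car13 side were Rbis and E2f5. Rbis had a log2 difference of 0.10 ± 0.12 (SE, adjusted p = 0.585 in limma) and E2f5, a transcription factor of the cell cycle, one of 0.05 ± 0.08 (SE, adjusted p = 0.711). Rbis reached 0.38 with an adjusted p of 0.00779 within the 18 libraries. The signs of both genes turned under median-of-ratios scaling, at -0.04 and -0.06. Gm9733, Sirpb1a, Sirpb1b and Sirpb1c on the Car2 side were below the level for testing.

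Car5a (chromosome 8, 121916126 to 121944904, - strand), the mitochondrial form that serves the urea cycle and gluconeogenesis, was the second most abundant member. In set 2 it had 38.6, 28.21, 23.34, 27.12, 34.64 and 51.45 FPKM in L2d13 livers, against 43.53, 28.23, 42.47, 39.24, 55.56 and 51.72 FPKM in WT livers. The set 4 values of Car5a were 46.11, 29.2, 24.11, 30.75, 61.54 and 35.69 FPKM in L2d13 livers, against 71.85, 34.63, 46.77, 55.32, 35.32 and 79.31 FPKM in WT livers. The groups overlapped in both sets, and 5 of 6 L2d13 libraries lay below the WT mean in each.

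Car5a averaged 35.9 ± 11.7 FPKM in L2d13 livers and 48.7 ± 15.2 FPKM in WT livers (SD, n = 12 each), a log2 difference of -0.43 ± 0.16 (SE, adjusted p = 0.0462 in limma). This call was the least firm of the 5. Without L2d13 set 2 replicate 3 the log2 difference was -0.39 (adjusted p = 0.0666 in limma), within the 18 libraries it was -0.31 (adjusted p = 0.281), and 17 of the 24 fits that left out 1 library lost the call, with adjusted p from 0.0193 to 0.0867. Neither set passed alone, with adjusted p of 0.303 in set 2 and 0.158 in set 4. The gene overlaps BC048644 on the opposite strand, and whether counting used the strand is not given in the sources used here.

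Car14 (chromosome 3, 95897768 to 95904691, - strand), a membrane-spanning form with its active site outside the cell, did not pass in any comparison. It had 19.55, 18.69, 8.09, 15.66, 24.52 and 24.74 FPKM in L2d13 livers of set 2, against 25.91, 14.82, 45.43, 22.69, 47.52 and 16.82 FPKM in WT livers of set 2. The set 4 values of Car14 were 23.98, 17.83, 19.96, 36.59, 35.01 and 29.89 FPKM in L2d13 livers, against 22.28, 19.99, 35.42, 29.02, 31.51 and 39.62 FPKM in WT livers. The groups overlapped in both sets. Over both sets the log2 difference was -0.34 ± 0.20 (SE, adjusted p = 0.194 in limma), with a 95% interval of -0.75 to 0.07. Leaving out L2d13 set 2 replicate 3, the lowest library, gave -0.23, and the 18 libraries gave -0.18. Its locus overlaps Aph1a on the opposite strand, with the same limit. Car4 (chromosome 11, 84957786 to 84966044, + strand), a form anchored to the outer face of the membrane, was listed at 0 in 9 of 12 L2d13 livers and 10 of 12 WT livers, and its highest value was 0.04 FPKM in each genotype.

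Car8 (chromosome 4, 8143362 to 8239041, - strand), the member without enzyme activity, is known as a binding partner of an inositol trisphosphate receptor in the brain. It had the smallest error of the members that fell. In set 2 it had 7.78, 7.4, 6.51, 6.7, 8.99 and 6.48 FPKM in L2d13 livers, against 12.9, 11.59, 10.51, 10.78, 14.38 and 11.49 FPKM in WT livers. All L2d13 libraries lay below all WT libraries there, as held for 0.56% of all genes tested. The set 4 values of Car8 were 9.05, 5.92, 7.58, 7.07, 8.5 and 8.01 FPKM in L2d13 livers, against 12, 14.38, 9.48, 11.4, 7.22 and 13.05 FPKM in WT livers. There, WT replicate 11 lay among the L2d13 libraries, and the other 5 WT libraries lay above all 6 L2d13 libraries.

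Car8 averaged 7.50 ± 1.01 FPKM in L2d13 livers and 11.6 ± 2.02 FPKM in WT livers (SD, n = 12 each), a log2 difference of -0.56 ± 0.09 (SE) with an adjusted p of 9e-05 in limma. The log2 difference was -0.64 ± 0.13 in set 2 (SE, adjusted p = 0.00225 in limma) and -0.48 ± 0.13 in set 4 (SE, adjusted p = 0.0172). Over both sets it was -0.54 without L2d13 set 2 replicate 3 and -0.66 within the 18 libraries (adjusted p = 0.000134 and 7.79e-05 in limma). The call in set 4 was lost without L2d13 set 4 replicate 8, at -0.41 with an adjusted p of 0.0501.

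Counted by set, 4 of the 6 tested members passed in set 2, with Car1, Car3 and Car8 lower and Car2 higher in L2d13 livers, and 2 passed in set 4, Car3 and Car8, both lower. Of all genes tested, 15.1% passed in set 2 (2.13% lower and 13% higher) and 13.3% passed in set 4 (2.97% lower and 10.3% higher). None of the 6 members passed the test of the difference between sets (0 in limma, 2 at an unadjusted p of 0.05, Car1 and Car2), which 0.152% of all genes tested passed. The genotype contrasts of the sets use different libraries.

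Scaling moved the background of these counts. Under median-of-ratios scaling 11.1% of all genes tested were lower and 10.7% higher in L2d13 livers over both sets, and under quantile normalization 10.2% were lower and 12.4% higher. The median log2 difference of all genes was then 0.001 and 0.011, a shift of about 0.1 from the deposited scale. With either scaling 4 members passed as lower, Car1, Car3, Car5a and Car8, and none as higher.

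Per transcript length, the order of the members by mean FPKM was Car3, Car5a, Car14, Car8, Car2 and Car1 in L2d13 livers, and Car3, Car5a, Car14, Car8, Car1 and Car2 in WT livers. Car3 stood above Car5a in 12 of 12 livers of each genotype, and Car14 above Car8 likewise. Car5a stood above Car14 in 11 of 12 livers of each genotype. The lower end of the order was less firm in L2d13 livers: Car8 stood above Car2 in 10 of 12 and Car2 above Car1 in 8 of 12. In WT livers Car1 stood above Car2 in 12 of 12. Within L2d13 livers Car2 stood above Car1 in 6 of 6 libraries of set 2, and Car1 above Car2 in 4 of 6 libraries of set 4.

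Car3 dominated the summed carbonic anhydrase FPKM, less so in L2d13 livers. The 8 members and the other 7 carbonic anhydrase genes in the table summed to 113 to 874 FPKM in L2d13 livers, with a median of 385, and to 773 to 2278 FPKM in WT livers, with a median of 1277. Car3 made up 49.5 to 86.9% of that sum in L2d13 livers, with a median of 77.2%, and 85.7 to 94.1% in WT livers, with a median of 92.3%. Without Car3 the sum was 76.4 ± 17.9 FPKM in L2d13 livers and 102 ± 21.8 FPKM in WT livers (SD, n = 12 each). Ranked among all genes of its own library by FPKM, Car3 stood at place 102 to 1172 in L2d13 livers, with a median of 257.5, and at place 34 to 104 in WT livers, with a median of 71. The ratio of Car3 to Car5a was 2.06 to 15.9 in L2d13 livers and 13.9 to 36.7 in WT livers. Such ratios do not change when a library is multiplied by a factor, and they show unequal change, not which gene changed.

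**Figure D3:**
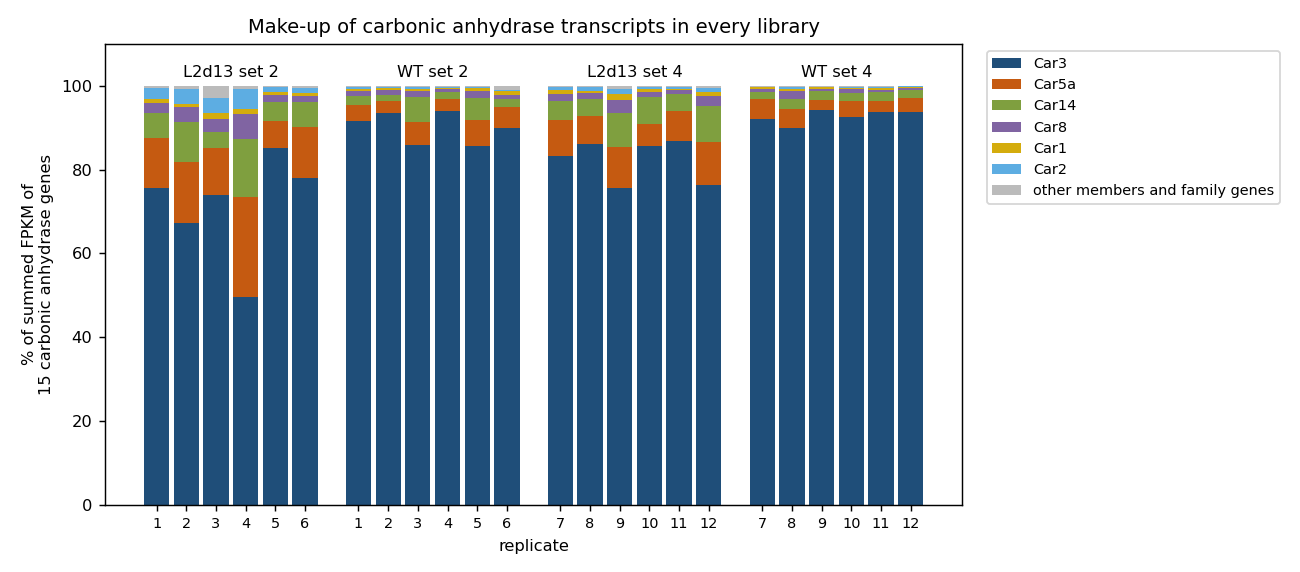
Share of each carbonic anhydrase gene in the summed FPKM of 15 carbonic anhydrase genes, in percent, with 1 stacked bar per library and L2d13 libraries left of WT libraries within each set. Car3 makes up 49.5 to 86.9% of the bar in L2d13 livers and 85.7 to 94.1% in WT livers.

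Of the other 8 carbonic anhydrase genes listed, 7 were in the table and Car6 was not analysed here. Only Car15, a membrane-anchored form, was tested, and it did not pass. It averaged 0.473 ± 0.523 FPKM in L2d13 livers and 1.12 ± 1.03 FPKM in WT livers (SD, n = 12 each), a log2 difference of -0.48 ± 0.19 (SE, adjusted p = 0.0619 in limma), and it passed as lower under median-of-ratios scaling (adjusted p = 0.0281) and quantile normalization (adjusted p = 0.0193). It also passed as lower in 4 of the 24 fits that left out 1 library, among them that without L2d13 set 2 replicate 3, at -0.58 with an adjusted p of 0.0139. The Car15 locus overlaps Gm20518, a protein-coding gene on the same strand. How counting treated this overlap is not given in the sources used here. Car5b, the second mitochondrial form, had 0.41 to 2.21 FPKM in L2d13 livers and 0.54 to 3.19 FPKM in WT livers. Car11, a relative without enzyme activity, had 0.19 to 0.5 FPKM in L2d13 livers and 0.29 to 1.88 FPKM in WT livers. Car7 stayed below 1 FPKM, and Car9, Car10 and Car12 stayed below 0.3 FPKM, in all 24 libraries.

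Genes that handle the substrates of these enzymes were followed in 2 lists. Of 27 bicarbonate, proton and related transporters 14 were tested, of which 3 rose and 2 fell in L2d13 livers over both sets, with a median log2 difference of 0.20, where 25.9% of all genes tested rose and 4.86% fell. The same shares are the background of the carboxylase, pericentral and male-biased counts over both sets that follow. Aqp8, a water channel of hepatocytes, averaged 10.6 FPKM in L2d13 livers and 31.9 FPKM in WT livers, a log2 difference of -1.43 ± 0.23 (SE, adjusted p = 7.23e-05 in limma), and -0.96 within the 18 libraries. Slc9a3r1, a scaffold that holds transporters at the membrane, fell by 0.43 ± 0.12 on the log2 scale (SE, adjusted p = 0.0092). Slc26a1, a sulfate and bicarbonate exchanger, was at 0.48 ± 0.13 (log2, SE, adjusted p = 0.00665), a call lost under both scalings (adjusted p = 0.108 and 0.0565). Slc4a4, a sodium and bicarbonate cotransporter, was at 0.69 ± 0.24 (log2, SE, adjusted p = 0.031). That call was also lost under both scalings (adjusted p = 0.103 and 0.0922), within the 18 libraries (0.31, adjusted p = 0.374) and in 11 of the 24 fits that left out 1 library. Of the 10 alternatives other than left-out libraries, 4 kept the Slc4a4 call. Slc9a8, the third that rose, had a log2 difference of 0.35 (adjusted p = 0.0359 in limma). Its highest library had 21.45 FPKM among L2d13 and 8.63 FPKM among WT livers, and its call was not checked under the alternatives.

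Of 16 genes of bicarbonate-using carboxylation and of entry into the urea cycle 15 were tested, of which 6 rose and 2 fell, with a median log2 difference of 0.13. Cps1, the mitochondrial enzyme that takes up bicarbonate for urea, averaged 1061 FPKM in L2d13 livers and 538 FPKM in WT livers, a log2 difference of 1.01 ± 0.27 (SE, adjusted p = 0.0061 in limma). Otc, the next enzyme of the urea cycle, averaged 118 FPKM in L2d13 livers and 170.3 FPKM in WT livers, a log2 difference of -0.55 ± 0.11 (SE, adjusted p = 0.000738). Acacb, a carboxylase of fatty acid metabolism, was at 0.60 ± 0.13 (log2, SE, adjusted p = 0.000982). Mccc2, a subunit of the carboxylase of leucine breakdown, was at 0.46 ± 0.11 (log2, SE, adjusted p = 0.00204), and its call was lost under median-of-ratios scaling (adjusted p = 0.0872). Cps1 and Car5a, which share the mitochondrial bicarbonate, thus had log2 differences of opposite sign. The Car5a call was the least firm of the members, as given above, and 17 of the 24 fits that left out 1 library lost it.

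In rodents Car3 is known to be high near the central vein and in male liver, and lists of both kinds were set beside it. Of 16 tested pericentral genes 4 rose and 4 fell in L2d13 livers over both sets, with a median log2 difference of 0.08. By set, 5 fell and none rose in set 2 (0 in limma, 1 at an unadjusted p of 0.05), with a median of -0.18, and 4 rose and 2 fell in set 4, with a median of 0.22. Of all genes tested, 2.13% fell and 13% rose in set 2, and 2.97% fell and 10.3% rose in set 4. None of the 16 pericentral genes passed the test of the difference between sets (0 in limma, 7 at an unadjusted p of 0.05, all positive). Over both sets Cyp1a2, a drug-metabolizing enzyme, fell by 1.08 ± 0.13 (log2, SE, adjusted p = 4.31e-06 in limma), and Rgn, a calcium-binding protein of hepatocytes, fell by 0.82 ± 0.11 (log2, SE, adjusted p = 8.92e-06). Oat, an enzyme of ornithine breakdown, rose by 0.92 ± 0.16 (log2, SE, adjusted p = 0.00013), and Lect2, a secreted hepatocyte protein, fell by 0.69 ± 0.15 (log2, SE, adjusted p = 0.00117).

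Of 20 tested male-biased genes 8 fell and none rose over both sets (0 in limma, 1 at an unadjusted p of 0.05), with a median log2 difference of -0.34. By set, 7 fell in set 2, with a median of -0.37, and 3 fell in set 4, with a median of -0.21 (8 and 7 at an unadjusted p of 0.05). Of all genes tested, 2.13% fell in set 2 and 2.97% in set 4. None of the 20 male-biased genes passed the test of the difference between sets (0 in limma, 2 at an unadjusted p of 0.05, both positive). Over both sets Elovl3, a fatty acid elongase, fell by 1.12 ± 0.27 (log2, SE, adjusted p = 0.00288 in limma) and Gstp1, a glutathione transferase, by 0.72 ± 0.16 (log2, SE, adjusted p = 0.00143). Mup21 was at -1.24 ± 0.20 (log2, SE, adjusted p = 9.09e-05) and Mup3 at -0.53 ± 0.11 (log2, SE, adjusted p = 0.000853). Both code for urinary proteins whose many near-identical copies make their counts uncertain, and the Mup3 call was lost under quantile normalization (-0.14, adjusted p = 0.418). The sex of the animals is not given in the sources used here.

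Car3 is also high in fat and muscle. Of 9 measured adipocyte genes 4 were tested, of which 2 rose over both sets, the fatty acid carrier Fabp4 (0.57 ± 0.20, log2, SE, adjusted p = 0.0308 in limma) and the lipase Lipe (0.41 ± 0.10, adjusted p = 0.0029). Over both sets 25.9% of all genes tested rose. Lpl, a lipase of lipoproteins, had a log2 difference of 0.36 (adjusted p = 0.0881) and Cfd, the protease adipsin, one of -1.16 (adjusted p = 0.0613). Fabp4 averaged 16.3 FPKM in L2d13 livers and 9.20 FPKM in WT livers, and its highest library had 60.96 and 19.4 FPKM. Adipoq and Plin1, which are known to be largely restricted to adipocytes, did not exceed 0.09 and 0.03 FPKM in any library. The adipocyte genes summed to 25.6 to 89.2 FPKM in L2d13 and 18.1 to 35.3 FPKM in WT livers of set 2, and to 20.3 to 36.0 FPKM in L2d13 and 15.9 to 41.2 FPKM in WT livers of set 4. The 89.2 FPKM was L2d13 set 2 replicate 3, and the other L2d13 libraries of set 2 had 25.6 to 37.2 FPKM. The Fabp4 and Lipe calls were not checked without that replicate. The 11 skeletal muscle genes summed to at most 4.3 FPKM in any library, and the 1 that was tested did not pass. The part of fat and muscle in the Car3 level was not tested. Of 10 tested hepatocyte genes 2 rose and 1 fell over both sets, where 25.9% of all genes tested rose and 4.86% fell. The sums of the 10 hepatocyte genes were 29517 to 56246 FPKM in L2d13 and 50691 to 59687 FPKM in WT livers of set 2. In set 4 these sums were 45461 to 57910 FPKM in L2d13 and 54843 to 58423 FPKM in WT livers. The part of hepatocyte content in the Car3 level was not tested.

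The wide spread of Car3 within groups was described by the genes that varied with it. For each tested gene the deviation of log2(FPKM + 1) from its group mean was taken over 24 libraries and correlated with that of Car3, which leaves out the genotype and the set but keeps what a library shares, such as depth and composition. Rgn had the highest correlation, with Pearson r = 0.861 and Spearman rho = 0.779, and it averaged 282 FPKM in L2d13 livers and 492.8 FPKM in WT livers. Acat3 (r = 0.726), Hsd3b2 (0.726), Inmt (0.714) and Cyb5r3 (0.70) followed as values of r. Inmt, a methyltransferase of small amines, averaged 152 FPKM in L2d13 livers and 437 FPKM in WT livers. At the other end stood Chd1 (r = -0.779), Smurf2 (-0.775), Guf1 (-0.759), Arnt (-0.757) and Itgb3 (-0.742). Within the 18 libraries the correlation of Car3 with Rgn was 0.906. These values are descriptions chosen as extremes among all tested genes, and no test was made of them.

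**Figure D4:**
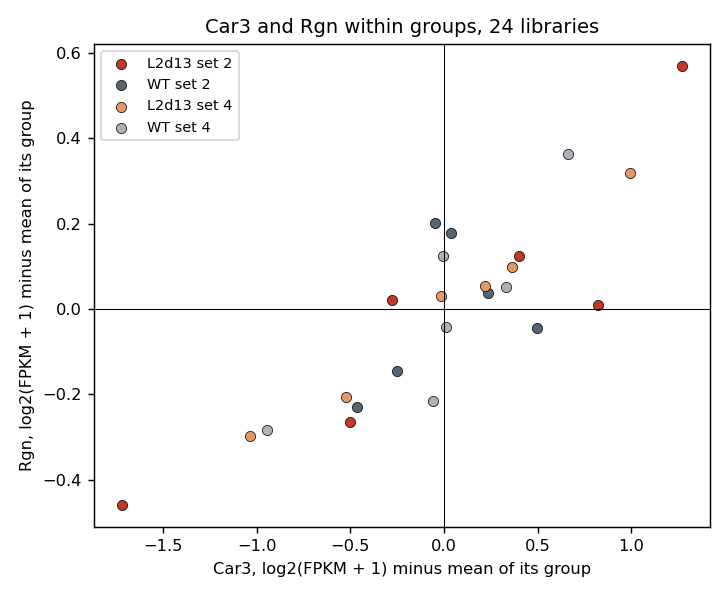
Deviation of log2(FPKM + 1) from the group mean for Car3 (horizontal axis) and Rgn (vertical axis), with 1 point per library and 24 libraries in 4 groups, L2d13 listed before WT. The points run from low Car3 with low Rgn to high Car3 with high Rgn (Pearson r = 0.861), and L2d13 set 2 replicate 4 has the lowest Car3 deviation, at -1.72.

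Each of the other tested members had other genes nearest to it. Car14 was nearest to Aldh1l1, an enzyme of folate metabolism (r = 0.925), and to Ass1, an enzyme of the urea cycle (r = 0.886). Both values include L2d13 set 2 replicate 3, where Car14 was lowest, at 8.09 FPKM. In that library the hepatocyte markers, of which Ass1 is one, summed to only 29517 FPKM. Car8 was nearest to Eif2a (r = 0.825) and Casp6 (r = 0.794). Car5a was nearest to Gstm7 (r = 0.785) and Abhd14b (r = 0.743), Car1 to Slirp (r = 0.751) and Spa17 (r = 0.733), and Car2 to Dusp12 (r = 0.709) and Zbtb12 (r = 0.699).

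Among themselves the 6 tested members form 15 pairs, of which 12 correlated positively within groups, and none passed 0.05 after adjustment over the pairs (permutation within groups, 100000 resamples, two-sided). Car3 with Car5a had r = 0.563 (permutation p = 0.0069, adjusted 0.076) and rho = 0.555 (permutation p = 0.009, adjusted 0.089), and r was 0.642 without the 2 libraries farthest from the median of Car3. Car1 with Car3 had r = 0.546 (permutation p = 0.015, adjusted 0.076) and rho = 0.454 (permutation p = 0.049, adjusted 0.23), and r was 0.591 without the 2 farthest libraries. Car5a with Car14 had r = 0.513 (permutation p = 0.01, adjusted 0.076) and rho = 0.518 (permutation p = 0.012, adjusted 0.089), and r was 0.451 without the 2 farthest libraries. Car2 and Car1, which are adjacent to Car3 on chromosome 3, had r = -0.05 with each other (permutation p = 0.84, adjusted 0.84).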

How the data were processed

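Liver RNA was sequenced on the BGISEQ-500 in 12 L2d13 and 12 WT libraries, per the labels. FPKM values are the authors' own and were taken as deposited. The submitters' processing notes name HISAT, Bowtie2, RSEM and GRCm38.p5, without roles or versions. Whether counting used the strand is not given in the sources used here, and absolute depth cannot be had from FPKM. Columns of no sample numbered 0, identical pairs of libraries 0, and correlations between libraries ran from 0.953 to 0.995. Of the gene identifiers 18040 matched a RefSeq symbol (GRCm38.p6) and 131 did not; coordinates and transcripts are from GENCODE M21 (GRCm38). Genes reaching 1 FPKM in 6 or more libraries (10532) were fitted as log2(FPKM + 1) with limma 3.58.1 (R 4.3.3), variances following the mean. A pseudocount of 1 understates the change of low genes. Set and genotype were additive terms for the genotype over both sets, and 1 mean per group gave the other contrasts. P-values are two-sided, adjusted by Benjamini and Hochberg over all genes within a contrast, with a threshold of 0.05. The FPKM worth of 1 fragment came from steps between low values of 163 genes, where 73.3% of 2092 values lay within 0.3 of 1 or 2 steps, and the limit between libraries (1.03) was set with the values seen. The fit was also run on simulated data. Their noise was independent between genes and libraries, so that run does not address shifts that genes of a library share. Permutations used Python 3.11.15 with numpy 2.4.6.

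The members, lists and tests were chosen with earlier results of these data known, and patterns in the lists are no independent support. All members and all other carbonic anhydrases were named. Of each pathway list, at most the 4 called genes with the smallest p over both sets were named, and Slc9a8, the neighbours of the chromosome 3 cluster and marker genes were named after their values were seen. Of genes most like a member, the 5 highest and 5 lowest correlations for Car3 and the 2 highest for the others were named, predicted genes passed over. Alternatives covered pseudocount, filter, scaling, libraries by FPKM per fragment, variance model, replicate block and leaving out each library. Those for correlations and for genes that are no member were chosen after seeing the data.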

Additional observations from a re-analysis of the deposited data

How the results depend on the processing

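Car3 over both sets kept its call under every alternative tried, with log2 differences of -2.20 to -1.91, and of -2.17 to -1.88 with each library left out. The count of members called over both sets was 4 to 5 under all alternatives and with each library left out, against 5, and in set 2 it was 4 throughout. In set 4 it was 2, but 1 within the 18 libraries of nearly equal FPKM per fragment and 1 with the replicate block, and 1 to 2 with each library left out. For set 4 minus set 2 in L2d13 livers it was 1, but 2 with a term for the class of FPKM per fragment (Car1, 0.55, adjusted p = 0.0452 in limma) and 1 to 2 with each library left out (2 without L2d13 set 2 replicate 5, with Car3 at 1.28, adjusted p = 0.04).

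Signs turned only for values that had not passed. Under median-of-ratios scaling these were Car2 in set 4 (-0.041), Rbis (-0.042), E2f5 (-0.059), and, for set 4 minus set 2 in WT livers, Car1 (0.008) and Car8 (0.006). Under quantile normalization they were Car2 in set 4 (-0.065), E2f5 (-0.08) and the difference between sets of Car5a (0.013). Within the 18 libraries they were the difference between sets of Car8 (-0.092), Car14 in set 4 (0.30), and Car8 (0.13) and Car14 (-0.42) for set 4 minus set 2 in WT livers. With the class as a term it was Car8 in that last contrast (0.008). With each library left out, Car2 in set 4 ranged from -0.027 to 0.084, Car5a for set 4 minus set 2 in L2d13 livers from -0.015 to 0.263, and in WT livers Car1 from -0.176 to 0.011, Car8 from -0.172 to 0.009 and Car14 from -0.023 to 0.301. Over all single-gene values under alternatives other than left-out libraries, 17 lost the call, 5 gained it, 13 turned, and the others kept direction and side of the threshold. Of 140 correlations under other settings 137 stayed within their interval, 3 moved and 0 turned. The cause of these changes was not tested.

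Deviations of the 12 same-numbered pairs of libraries correlated from -0.604 to 0.26, and 4 pairs lay above 0.1. No pairs of unlike number were compared, so these values do not decide whether the replicate number pairs the samples. With the number as a replicate block 5 members passed over both sets, 4 in set 2 and 1 in set 4, where Car8 had an adjusted p of 0.0522 in limma. Absolute depth is unknown, so values near 0, such as those of Car4 and Car13, carry no interval.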
